A study of Mus musculus with 6 samples.

Results

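Transcript levels of 10 genes known to respond to stress of the heart, other than the natriuretic peptides, were examined in hearts of 12-month-old mice, 3 of them wild-type and 3 labelled cenpf knock-out. Cenpf encodes a large microtubule-binding protein of the kinetochore. Each heart was measured on 1 Affymetrix mouse gene array and is named by its replicate number. The labels call the hearts biological replicates, describe the mice as untreated and give neither strain, sex, the part of Cenpf deleted nor any Cre driver. The list held Ankrd1, Xirp2, Uchl1, Mybpc2, Rcan1, Gdf15, Ces1d, Fhl1, Nmrk2 and Serpina3n, and it was drawn up with the measured values of these 6 arrays known. Their probes were chosen by the highest mean log2 value over the 6 arrays among probes annotated with exactly 1 gene symbol, a value that does not use the genotype. Of the 10 genes, 9 had such a probe, out of 19938 genes on the array, and each of the 9 had only 1. No value is given for Gdf15, the secreted stress cytokine, because no probe here carries its symbol alone. Because of how the list arose, the differences are given as descriptions, and the adjusted p-values come from the fit over all probes.

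Heart muscle under mechanical load, injury or metabolic stress re-expresses fetal genes and induces others that act in the sarcomere, in calcium signalling, in metabolism and outside the cell. Several of them serve as tissue markers of hypertrophy or failure, since their transcripts follow wall stretch, calcineurin activity or inflammation. They are made by different cells, muscle for Ankrd1 and Xirp2 but also stroma for Serpina3n, so in whole hearts a change in the number of cells of a type and a change in RNA per cell cannot be told apart.

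The array values are on a log2 scale on which 1 unit is a 2-fold difference. A background level of 6.35 was set from 1207 probes for olfactory and vomeronasal receptors. Cenpf itself read 8.75, 8.54 and 8.04 in wild-type hearts 1 to 3 and 6.35, 6.10 and 6.68 in knockout hearts 1 to 3, a difference of -2.07 (limma, adjusted p = 0.0286), and whether its probe lies in the deleted part is not known here. All 16 ventricular cardiomyocyte markers listed, contractile and calcium handling genes among them, lay above the background level, with list means of 12.78 to 12.83 in wild-type and 12.77 to 12.89 in knockout hearts. Wild-type heart 3 stood apart from its group: over 21789 probes its mean absolute gap was 0.224 to the other wild-type hearts and 0.194 to the knockout hearts. For wild-type hearts 1 and 2 the gap to their own group was the smaller one, 0.201 against 0.231 and 0.205 against 0.247. For the members, and for each other gene whose call changed without wild-type heart 3, the difference or adjusted p without it is given too.

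Across the members, 8 of 9 had a higher mean in knockout hearts and 1, Nmrk2, a lower one, with a median difference of 0.50 beside -0.0082 over all probes tested. With limma and Benjamini-Hochberg adjustment over 21789 probes, 0 of the 9 passed an adjusted p of 0.05, where 0.0275% of all probes did (6 probes). At an unadjusted p under 0.05 there were 5 of 9, beside 9.9% of all probes, namely Uchl1, Mybpc2, Rcan1 and Serpina3n, higher, and Nmrk2, lower. The groups did not overlap for 2 members. These were Uchl1, higher in every knockout heart, beside 7.33% of all probes, and Nmrk2, lower in every knockout heart, beside 7.47%. In the other 7 members wild-type hearts 1 and 2 lay below every knockout heart and wild-type heart 3 did not. That arrangement, singled out after the values were seen, was found in 8.51% of all probes. Knockout heart 1 read highest of the 6 hearts in 7 of 9 members, against 18.8% of all probes.

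**Figure D1:**
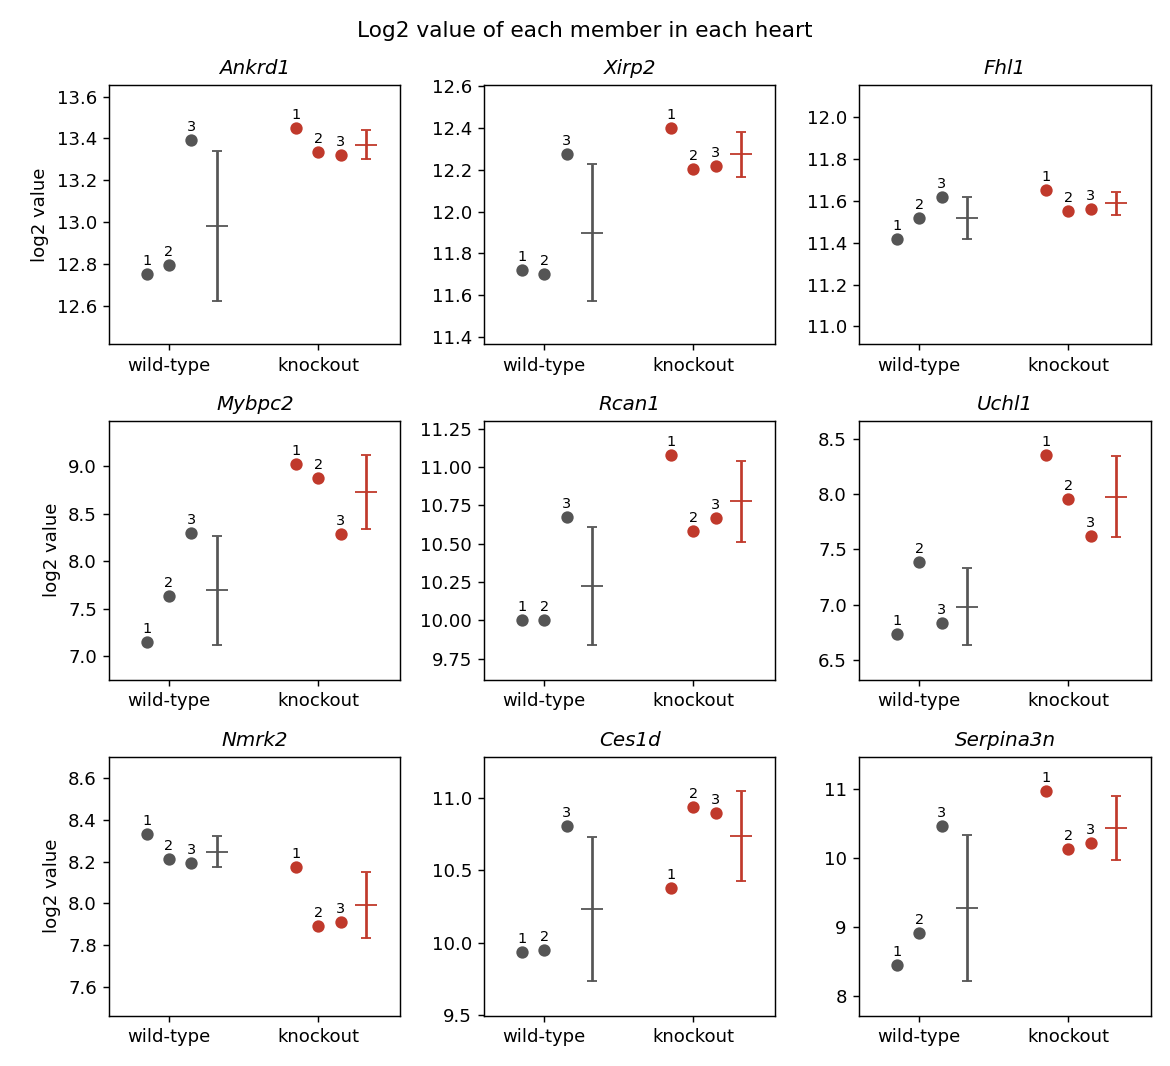
Log2 value of each of the 9 measured genes in each heart (vertical axes, scaled separately), with wild-type hearts in grey and knockout hearts in red, numbered by replicate; bars beside the points give the mean and SD of 3 hearts. Uchl1 and Nmrk2 are the 2 genes whose groups do not overlap, and in the other 7 wild-type heart 3 lies at or above the lowest knockout heart.

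Of the genes that act in the sarcomere and at the intercalated disc, Ankrd1 and Xirp2 had nearly the same pattern over the 6 hearts. Ankrd1 encodes a stretch-induced ankyrin repeat protein that binds titin and also enters the nucleus. It read 12.75, 12.79 and 13.39 in wild-type hearts 1 to 3 and 13.45, 13.34 and 13.32 in knockout hearts 1 to 3. Wild-type hearts 1 and 2 were low, and wild-type heart 3 lay within the knockout range. The group means of 12.98 ± 0.36 and 13.37 ± 0.070 (SD, n = 3) differed by 0.39 with a standard error of 0.17, a 1.31-fold higher level with a 95% confidence interval of -0.00092 to 0.78 on the log2 scale (limma, adjusted p = 0.506). Without wild-type replicate 3 the difference was 0.60 (adjusted p = 0.0474), and without wild-type replicate 1 it was 0.28 (adjusted p = 0.788).

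Xirp2 encodes an actin-binding Xin repeat protein of the intercalated disc and is a known target of MEF2 factors. Its values were 11.72, 11.70 and 12.28 in wild-type and 12.40, 12.21 and 12.22 in knockout hearts. Again 2 wild-type hearts were low and wild-type heart 3 lay among the knockout hearts. The difference was 0.37 with a standard error of 0.16, or 1.30-fold (adjusted p = 0.504), and 0.56 without wild-type replicate 3 (adjusted p = 0.0700). Without wild-type replicate 2 it was 0.28 (adjusted p = 0.861). After each gene's own mean was subtracted, Ankrd1 and Xirp2 lay within 0.055 of each other in every heart, with a mean gap of 0.031. That was the smallest gap of the 36 pairs of members, followed by 0.10 for Xirp2 and Rcan1 and 0.11 for Ankrd1 and Rcan1.

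The windows from 250 bases before to 50 bases after the transcription start of these genes are shown because their values were so alike, and those of Rcan1 and of the 2 genes without overlap follow further on. Sequences are from RefSeq, assembly GRCm38.p6, written 5′ to 3′ on the gene's strand, and 9 of the 10 genes matched, with 12 windows in all. Capitals mark matches, searched on both strands, to 6 motifs. The motif of TEAD factors was spelled GGAATG. That of GATA factors was spelled AGATAA. The core of NFAT sites was spelled GGAAA. The AP-1 motif was spelled TGANTCA, and the MEF2 box and the CArG box are given by name. Ankrd1 lies on the minus strand at chr19:36119795-36120094 and Xirp2 on the plus strand at chr2:67445752-67446051.
Ankrd1: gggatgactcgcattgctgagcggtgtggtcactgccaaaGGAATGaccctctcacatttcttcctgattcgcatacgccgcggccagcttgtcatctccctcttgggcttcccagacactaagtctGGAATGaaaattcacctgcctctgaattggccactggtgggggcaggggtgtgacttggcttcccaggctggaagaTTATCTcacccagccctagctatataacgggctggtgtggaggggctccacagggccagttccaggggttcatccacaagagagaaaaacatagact
Xirp2: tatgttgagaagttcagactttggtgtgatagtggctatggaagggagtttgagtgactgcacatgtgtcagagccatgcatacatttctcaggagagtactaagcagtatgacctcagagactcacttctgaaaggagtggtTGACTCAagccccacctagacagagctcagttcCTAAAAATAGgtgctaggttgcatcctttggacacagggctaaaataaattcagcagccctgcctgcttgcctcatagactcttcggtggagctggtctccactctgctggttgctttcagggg
The Ankrd1 window held GGAATG at -210 to -205 and at -123 to -118 from the start, and the GATA motif at -47 to -42. The Xirp2 window held a MEF2 box at -74 to -65 and an AP-1 match at -107 to -101. No 2 of these matches overlapped. Of all 32851 windows of this length, 14.7% held the TEAD motif, 11.2% the GATA motif, 7.81% the AP-1 motif, 3.19% a MEF2 box and 1.63% a CArG box. Among the 12 windows of the members, 3 held the TEAD motif (Ankrd1, Mybpc2 and the second start of Gdf15) and 1 each a MEF2 box and a CArG box, the last at a start of Fhl1. A match describes the letters only, and binding was not measured.

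Fhl1, which encodes a LIM domain protein that binds titin in the I-band, was the least different member. It read 11.42, 11.52 and 11.62 in wild-type and 11.65, 11.55 and 11.56 in knockout hearts. The whole span of the 6 hearts was narrow and the groups overlapped. The difference of 0.070 had a 95% confidence interval of -0.16 to 0.30 (adjusted p = 0.833), so that changes above 1.23-fold lie outside it. Single hearts moved it, to 0.020 when wild-type replicate 1 was left out, to 0.038 for knockout replicate 1 and to 0.12 for wild-type replicate 3.

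Mybpc2, the myosin-binding protein C of fast skeletal muscle, had one of the widest spans. It read 7.15, 7.63 and 8.30 in wild-type hearts and 9.02, 8.87 and 8.29 in knockout hearts. The groups met at their edge, where wild-type heart 3 and knockout heart 3 lay 0.011 apart. The means of 7.69 ± 0.58 and 8.73 ± 0.39 (SD, n = 3) differed by 1.04 with a standard error of 0.29, or 2.05-fold with a 95% confidence interval of 1.29 to 3.27 (adjusted p = 0.391). The difference ranged from 0.76 without wild-type replicate 1 to 1.34 without wild-type replicate 3 (adjusted p = 0.0603). Markers of fast and embryonic skeletal muscle were read beside it, since that muscle makes Mybpc2. Of the 20 markers 0 were called, 2 were higher and 1 lower without overlap, and their list mean was 6.79 to 6.96 in wild-type and 6.91 to 7.08 in knockout hearts. The alkali light chain Myl1 differed by 1.41 (adjusted p = 0.391, and 1.88 with 0.0311 without wild-type replicate 3) and the troponin C gene Tnnc2 by 0.35, with a wild-type mean under the background level (adjusted p = 0.412). The myosin genes Myh1 and Myh4 lay below the background level in both groups. Myh2, at 6.83 and 6.71, and Myh8, at 6.52 and 6.71, lay above it in both. Of the 20 markers 14 exceeded it in 1 or both groups. The part of such muscle in the Mybpc2 values was not tested.

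Among the signalling and protein turnover genes, Rcan1 encodes an inhibitor of calcineurin that NFAT factors induce in return. It read 10.0013, 9.9997 and 10.67 in wild-type hearts 1 to 3 and 11.08, 10.58 and 10.67 in knockout hearts. Wild-type hearts 1 and 2 were low, knockout heart 1 was high, and the other 3 hearts lay within 0.087 of each other. The difference was 0.55 with a standard error of 0.21, or 1.47-fold with a 95% confidence interval of 1.05 to 2.04 (adjusted p = 0.469). It was 0.78 without wild-type replicate 3 (adjusted p = 0.0831) and 0.40 without knockout replicate 1. The gene has 2 starts in the RefSeq table, and the downstream one, at chr16:92400029-92400328 on the minus strand, is shown because the short Rcan1 transcript that calcineurin induces begins at an internal start.
Rcan1, downstream start: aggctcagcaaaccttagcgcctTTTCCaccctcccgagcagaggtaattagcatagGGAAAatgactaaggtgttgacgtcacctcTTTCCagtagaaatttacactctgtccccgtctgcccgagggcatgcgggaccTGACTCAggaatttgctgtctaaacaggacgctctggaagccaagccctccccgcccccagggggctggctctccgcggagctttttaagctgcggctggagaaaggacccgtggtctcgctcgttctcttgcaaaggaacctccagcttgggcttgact
This window held the NFAT core at 3 places, -227 to -223, -193 to -189 and -163 to -159, and an AP-1 match at -110 to -104. The window of the upstream start held none of the motifs searched. The NFAT core is short and was found in 61.3% of all windows, and in 5 of the 12 windows of the members. The single Rcan1 probe does not tell the transcripts of the 2 starts apart.

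Uchl1 was the member whose groups were apart in the upward direction. It encodes a ubiquitin C-terminal hydrolase that is abundant in neurons and is also found in stressed heart muscle. It read 6.73, 7.38 and 6.83 in wild-type hearts and 8.35, 7.96 and 7.62 in knockout hearts. Every knockout heart lay above every wild-type heart, and here wild-type heart 3 sat with its own group. The means of 6.98 ± 0.35 and 7.98 ± 0.37 (SD, n = 3) differed by 0.997 with a standard error of 0.22, with a fold difference whose 95% confidence interval is 1.40 to 2.84 (adjusted p = 0.366). Leaving out 1 heart gave differences from 0.81 (knockout replicate 1 left out) to 1.20 (wild-type replicate 2 left out). Without wild-type replicate 3 the difference was 0.92 (adjusted p = 0.162). The adjusted p lay between 0.125 and 0.615 over all alternatives. The window at the Uchl1 start, chr5:66675871-66676170 on the plus strand, held 1 match, to the NFAT core.
Uchl1: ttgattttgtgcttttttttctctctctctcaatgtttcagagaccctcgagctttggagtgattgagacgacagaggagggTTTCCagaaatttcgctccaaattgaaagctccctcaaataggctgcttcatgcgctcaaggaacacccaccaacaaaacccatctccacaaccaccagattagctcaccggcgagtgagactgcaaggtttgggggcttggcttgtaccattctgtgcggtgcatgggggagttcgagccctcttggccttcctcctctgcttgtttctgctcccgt
Neuron markers were read beside Uchl1, since neurons are its main known source. Of 17 markers 0 were called, 0 were apart between the groups in either direction, and 11 exceeded the background level in 1 or both groups. Their list mean was 6.73 to 6.83 in wild-type and 6.72 to 6.81 in knockout hearts, ranges that overlap. The largest differences in the list were those of Stmn2, a stathmin of growing axons, at 0.29 (adjusted p = 0.648), and of Gap43, a growth cone protein, at -0.26 (adjusted p = 0.524). Stmn2 was highest in knockout heart 1, as Uchl1 was, at 9.10. It read 8.39 to 8.71 in the other knockout hearts and 8.12 to 8.67 in wild-type hearts. The mean of the neuron list was 6.81 in knockout heart 1 and highest in wild-type heart 3, at 6.83. The groups overlapped for Stmn2 and for Gap43. The defining neuronal tubulin gene Tubb3, at 6.19 and 6.23, and the RNA-binding protein gene Elavl4, at 5.65 and 5.47, lay below the background level in both groups. Of 10 Schwann cell markers 1 was apart, Foxd3, with a difference of 0.21 (adjusted p = 0.552), and the glial receptor gene Gfra3 differed by 0.17 (adjusted p = 0.614).

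Among the metabolic genes, Nmrk2 was the single member with a lower mean in knockout hearts. It encodes a muscle kinase that makes NAD from nicotinamide riboside and is known to be induced in failing hearts. It read 8.33, 8.21 and 8.19 in wild-type hearts and 8.17, 7.89 and 7.91 in knockout hearts. The groups did not overlap, but the highest knockout heart, 1, lay close to the lowest wild-type heart, 3. The difference of -0.26 had a standard error of 0.11 (adjusted p = 0.504) and is a 1.19-fold lower level, with a 95% confidence interval of -0.51 to -0.00096 on the log2 scale. It was -0.28 without wild-type replicate 3 (adjusted p = 0.334) and -0.35 without knockout replicate 1. Without knockout replicate 2 it was -0.21, with a 95% confidence interval of -0.51 to 0.097. The window at the Nmrk2 start, chr10:81201988-81202287 on the minus strand, held none of the motifs searched, which says only that these letters are not in it.
Nmrk2: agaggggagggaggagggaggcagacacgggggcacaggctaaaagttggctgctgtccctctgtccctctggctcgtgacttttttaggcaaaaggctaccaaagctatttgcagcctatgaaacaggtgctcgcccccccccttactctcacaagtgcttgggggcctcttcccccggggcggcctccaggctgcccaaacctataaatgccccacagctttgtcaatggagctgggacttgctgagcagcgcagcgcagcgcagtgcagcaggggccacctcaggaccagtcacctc

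Ces1d encodes a carboxylesterase that hydrolyses triglyceride and is abundant in liver and fat. It read 9.94, 9.95 and 10.81 in wild-type hearts and 10.38, 10.94 and 10.89 in knockout hearts. Unlike the other 8 members it was not highest in knockout heart 1 among the knockout hearts, and wild-type heart 3 lay above that heart. The difference was 0.50 with a standard error of 0.25 (adjusted p = 0.542), with a 95% confidence interval of -0.070 to 1.08. It was 0.79 without wild-type replicate 3 (adjusted p = 0.103) and 0.36 without wild-type replicate 1 (adjusted p = 0.810). Adipocyte markers were read beside it and went the other way in part, with 10 of 17 lower in mean and 0 called. Of these, 3 were lower without overlap, beside 7.47% of all probes. Among the 3, Lep, at 6.20 and 5.99, lay below the background level in both groups. The list mean of the adipocyte markers was 8.39 to 8.65 in wild-type and 8.22 to 8.26 in knockout hearts, with a median difference of -0.10. Another 7 were higher in mean, among them Thrsp by 0.29 (adjusted p = 0.734) and Lpl by 0.16 (adjusted p = 0.655). The carbonic anhydrase Car3 differed by -2.29 (adjusted p = 0.368), and by -2.91 without wild-type replicate 3 (adjusted p = 0.0232). The hormone gene Retn differed by -0.85 (adjusted p = 0.473), or -0.48 without wild-type replicate 1, and Adipoq read 6.59 and 5.92, the second below the background level. The part of fat in the Ces1d values was not tested.

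Serpina3n encodes a secreted inhibitor of serine proteases that belongs to the acute phase response, and it had the largest difference and the widest wild-type spread of the members. It read 8.44, 8.91 and 10.46 in wild-type hearts and 10.97, 10.13 and 10.22 in knockout hearts. Wild-type heart 3 lay above knockout hearts 2 and 3, so the groups overlapped. The means of 9.27 ± 1.06 and 10.44 ± 0.46 (SD, n = 3) differed by 1.17 with a standard error of 0.47, or 2.24-fold with a 95% confidence interval of 1.06 to 4.74 (adjusted p = 0.486). The difference was 1.76, or 3.39-fold, without wild-type replicate 3 (adjusted p = 0.0388) and 0.75 without wild-type replicate 1 (adjusted p = 0.769). The gene belongs to a cluster of near-identical copies whose transcripts can share a probe, so the value is uncertain in that respect, and only Serpina3a and Serpina3b of the other family members listed had a probe of their own name, below the background level in both groups.

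**Figure D2:**
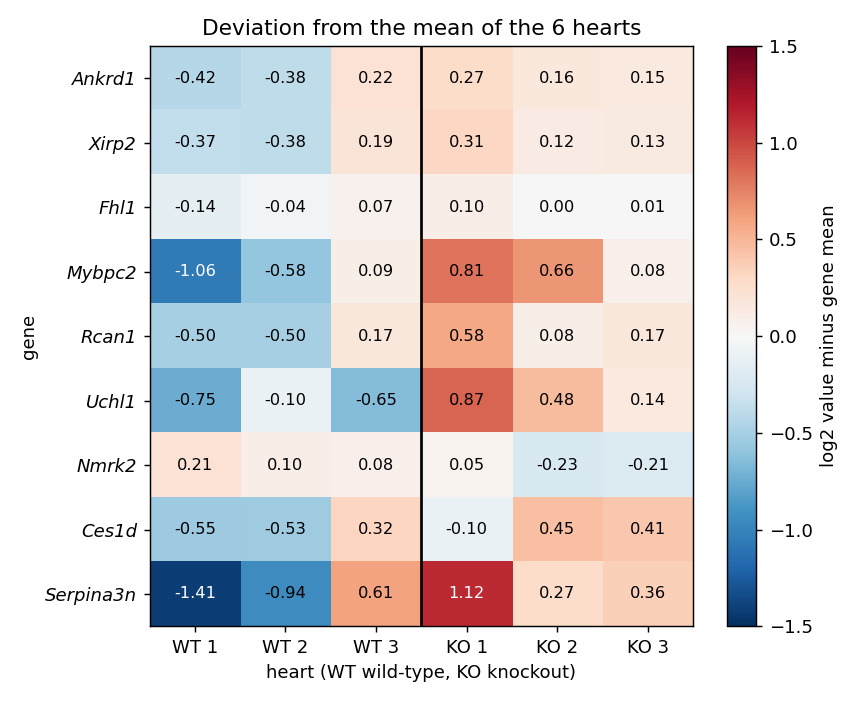
Deviation of each gene from its own mean over the 6 hearts (log2 units, blue below and red above), with wild-type hearts to the left of the line and knockout hearts to the right. Wild-type hearts 1 and 2 are below the mean in 8 of 9 rows, all but Nmrk2, and wild-type heart 3 is above it in every row other than Uchl1.

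**Figure D3:**
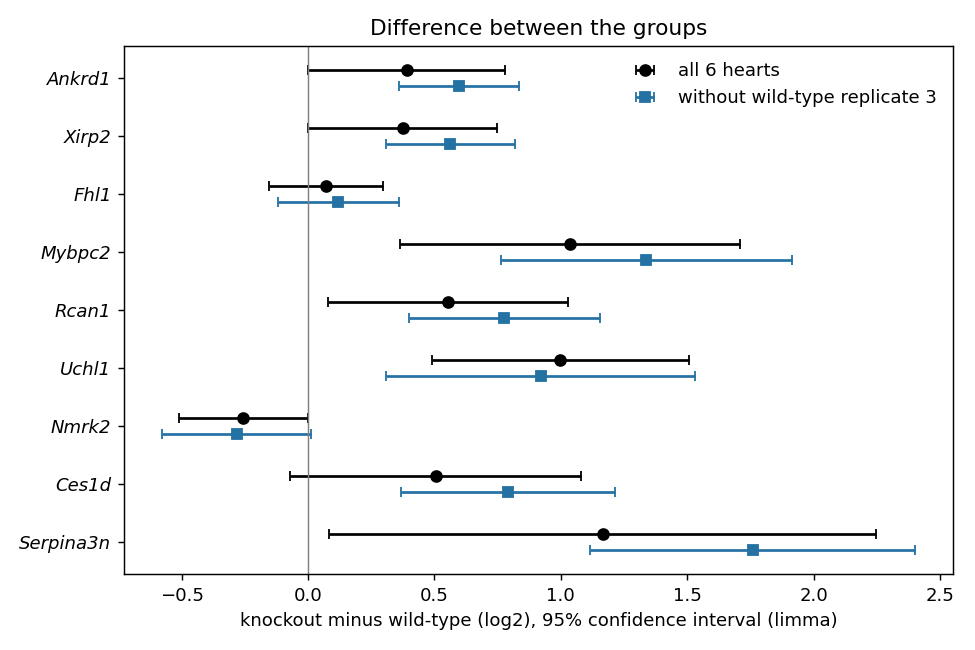
Knockout minus wild-type difference of each gene (log2, horizontal axis) with its 95% confidence interval from limma, not adjusted for the number of genes, for all 6 hearts (black circles) and without wild-type replicate 3 (blue squares). Without that heart the interval of Serpina3n moves from 0.084 to 2.25 to 1.12 to 2.40, and that of Uchl1 stays wide at 0.31 to 1.53.

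Without wild-type replicate 3, Ankrd1 and Serpina3n passed an adjusted p of 0.05, 2 of 9 members, beside 1.34% of all probes (293 probes). The median difference of the members was then 0.78. The 5 remaining hearts test the same groups with 1 fewer control, chosen because it lay near the knockout hearts, so this count gives no independent support. Without any other single heart 0 members passed.

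The relatives and partners of the members gave 0 calls in each of the 12 lists of pathway and family genes with all 6 hearts. In the list of ankyrin repeat genes and titin partners, 4 of 6 genes had a higher mean and the median difference was 0.23. Ankrd23, a close relative of Ankrd1, read 11.41, 11.55 and 12.52 in wild-type and 12.70, 12.48 and 12.44 in knockout hearts, a difference of 0.72 (adjusted p = 0.464, and 0.0164 without wild-type replicate 3). Ankrd2, the skeletal muscle relative, differed by 0.14 (adjusted p = 0.670) and the Z-disc gene Myot by 0.92 (adjusted p = 0.575). Single hearts moved the Myot difference, to 0.42 with wild-type replicate 1 left out and to 1.61 with wild-type replicate 3 left out (adjusted p = 0.0164). Ankrd23 and Myot thus had the arrangement of Ankrd1, with wild-type heart 3 among or above the knockout hearts. In the list of Xin repeat and nebulin-like scaffold genes the median was 0.026 over 7 genes. The relative Xirp1 differed by 0.026 (adjusted p = 0.973), while Nrap and Flnc, which anchor actin, differed by 0.48 (adjusted p = 0.469) and 0.36 (adjusted p = 0.527), and Nrap by 0.69 without wild-type replicate 3 (adjusted p = 0.0388).

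Among 8 LIM domain genes 4 had a higher mean, with a median of -0.054. Fhl2, the main heart relative of Fhl1, differed by -0.26 (adjusted p = 0.538), Fhl3 by -0.14 (adjusted p = 0.693) and Fhl4 by -0.33 (adjusted p = 0.498), with groups apart for Fhl4. The Fhl4 means were 6.45 in wild-type and 6.12 in knockout hearts, the second below the background level. Fhl5 was apart too, by -0.65 (adjusted p = 0.457), and lay below the background level in both groups. Of 6 myosin-binding protein genes 5 had a higher mean, with a median of 0.18. The cardiac form Mybpc3 differed by 0.18 (adjusted p = 0.661), the slow form Mybpc1 by 0.18 (adjusted p = 0.603), Mybphl by 0.19 (adjusted p = 0.616) and Mybph by -0.0021 (adjusted p = 0.997), all smaller than the 1.04 of Mybpc2. Whether they differ from it was not tested. Mybpc1 had a wild-type mean of 6.23, under the background level.

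Of 19 genes of the calcineurin pathway 9 had a higher mean, with a median of -0.0087. The relatives Rcan2 and Rcan3 differed by 0.12 (adjusted p = 0.743) and 0.13 (adjusted p = 0.690), less than Rcan1, and the anchoring protein gene Akap5 by 0.43 (adjusted p = 0.392), with groups apart. Myoz1, which tethers calcineurin at the Z-disc, differed by 0.24 (adjusted p = 0.581). Of 6 ubiquitin hydrolase genes 5 had a higher mean, with a median of 0.073. Uchl3 differed by 0.23 (adjusted p = 0.495) and was apart, Uchl5 differed by 0.072 (adjusted p = 0.863) and Atxn3 by -0.21 (adjusted p = 0.538).

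Of 19 genes that make or use NAD 13 had a higher mean, with a median of 0.046. Nmrk1, the relative of Nmrk2, read lower in every knockout heart, by -0.27 (adjusted p = 0.531). Nampt, the rate-limiting enzyme of NAD salvage, differed by 0.27 (adjusted p = 0.586) and the mitochondrial NAD carrier Slc25a51 by 0.39 (adjusted p = 0.444), with groups apart. Both nicotinamide riboside kinases thus had lower means while these other 2 had higher ones. Among 15 other carboxylesterase genes 9 had a higher mean, from -0.28 for Ces1e to 0.35 for Ces2g, with a median of 0.013. In 6 of them a group mean exceeded the background level, and of these Ces2g differed most (adjusted p = 0.448) and Ces4a by -0.16 (adjusted p = 0.602).

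In place of Gdf15, a list of 18 genes around GDF15 and the integrated stress response was read, with a median of 0.044. It included Atf4, whose factor drives many genes of that response, Gdf15 counted among them. It also held Gfral, which lay below the background level in both groups. Of the 18 genes 10 had a higher mean, 2 were apart upward and 3 downward. Those apart upward were Atf3 and Ppp1r15a, the second with a difference of 0.36 (adjusted p = 0.391). Atf3 read 7.80, 8.19 and 8.28 in wild-type and 8.59, 9.49 and 9.13 in knockout hearts, a difference of 0.98 (adjusted p = 0.368), and here wild-type heart 3 lay below the knockout hearts. Vldlr, a lipoprotein receptor, had overlapping groups and differed by 0.62 (adjusted p = 0.444), and by 0.87 without wild-type replicate 3 (adjusted p = 0.0231). The 3 genes apart downward were Ddit4 at -0.52 (adjusted p = 0.432), Ddit3 at -0.37 (adjusted p = 0.452) and Psat1 at -0.30 (adjusted p = 0.457). The list thus held differences both ways.

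Of 25 serpin and acute phase genes 11 had a higher mean, with a median of -0.027. The lipopolysaccharide-binding protein gene Lbp read 8.18, 8.65 and 10.04 in wild-type and 10.92, 10.39 and 10.43 in knockout hearts, a difference of 1.63 (adjusted p = 0.368). Without wild-type replicate 3 it was 2.17 (adjusted p = 0.00808). Lbp was apart between the groups and, like Serpina3n, lowest in wild-type hearts 1 and 2. Fgl2, a fibrinogen-like gene, differed by -0.74 (adjusted p = 0.488). Of 19 targets and partners of YAP, SRF and stretch 14 had a higher mean, with a median of 0.096. Ccn1, a secreted matrix protein that stretch induces, was apart with a difference of 0.55 (adjusted p = 0.256), and Ccn2 differed by 0.38 (adjusted p = 0.474). In the natriuretic and fetal list 9 of 13 genes had a higher mean, with a median of 0.060. Acta1 differed by 0.72 (adjusted p = 0.472) and Acta2, the smooth muscle actin, by -1.28 (adjusted p = 0.455). Without wild-type replicate 3 the Acta2 difference was -1.88 (adjusted p = 0.00699), and that of Acta1 was 0.43 when knockout replicate 1 was left out. Acta2 read 12.96, 12.76 and 11.07 in wild-type and 11.07, 10.66 and 11.20 in knockout hearts, with the same 2 wild-type hearts standing apart in the other direction.

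**Figure D4:**
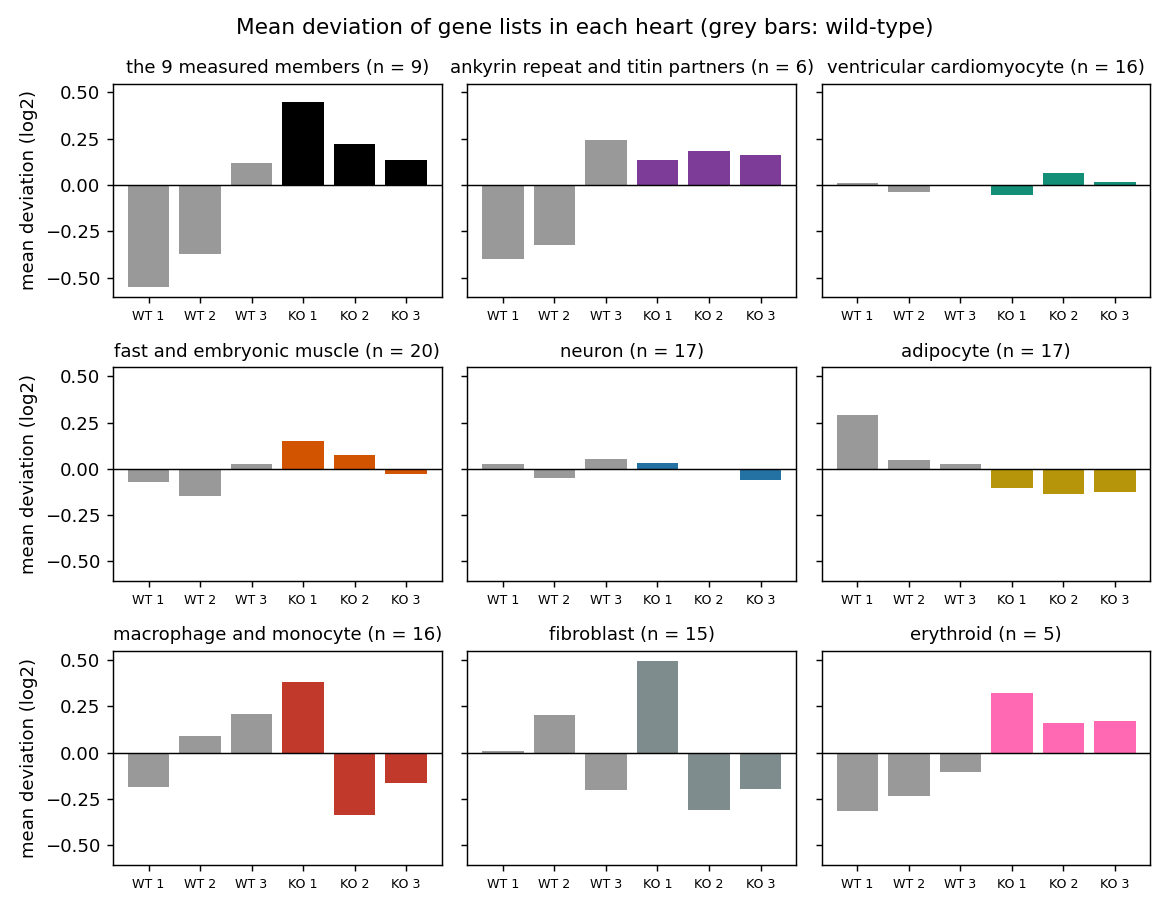
Mean deviation from the 6-heart mean (log2, vertical axis) of 9 gene lists in each heart, with wild-type hearts in grey and knockout hearts in colour; n is the number of genes found. The members and the ankyrin repeat list share the low wild-type hearts 1 and 2, fibroblast and macrophage markers are highest in knockout heart 1, and ventricular markers stay within 0.063 of their mean.

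Several lists of markers of other cells were highest in knockout heart 1, as most members were. Fibroblast markers, with 15 of 15 above the background level, deviated by 0.49 from their mean in knockout heart 1, which was also highest for Serpina3n, Rcan1 and Uchl1, and by -0.31 and -0.20 in knockout hearts 2 and 3. In wild-type hearts 1 to 3 they deviated by 0.011, 0.20 and -0.20. There Serpina3n deviated by -1.41, -0.94 and 0.61, Rcan1 by -0.50, -0.50 and 0.17, and Uchl1 by -0.75, -0.097 and -0.65. Of the fibroblast markers 0 were apart between the groups. The largest differences were 0.65 for Cilp (adjusted p = 0.540) and -0.43 for the matrix gene Lum (adjusted p = 0.663). That of Cilp was 0.24 without knockout replicate 1, and that of Lum lay between -0.75 and -0.22 with 1 heart left out. Macrophage and monocyte markers, with 15 of 16 above the background level, deviated by 0.38 in knockout heart 1, by -0.33 and -0.16 in the other knockout hearts, and by -0.18, 0.089 and 0.21 in wild-type hearts 1 to 3. In that list 2 markers were apart, both downward. The lipopolysaccharide co-receptor gene Cd14 differed by -0.79 (adjusted p = 0.110), and its adjusted p was 0.0392 with a trend and robust variance model, 0.0343 with array weights and 0.0403 without wild-type replicate 3. The chemokine receptor gene Cx3cr1 differed by -0.36 (adjusted p = 0.454). Erythroid markers deviated by 0.16 to 0.32 in knockout and -0.32 to -0.11 in wild-type hearts, with 4 of 5 apart upward but 2 below the background level. The heme synthesis gene Alas2 differed by 0.88 (adjusted p = 0.368) and the anion exchanger gene Slc4a1 by 0.54 (adjusted p = 0.263), and both passed without wild-type replicate 3, at 1.12 (adjusted p = 0.0355) and 0.62 (adjusted p = 0.0494). Of the remaining marker lists, atrial markers averaged 7.97 to 8.16 in wild-type and 8.11 to 8.29 in knockout hearts, with the light chain gene Myl7 apart at 0.53 (adjusted p = 0.454). Of the ventricular markers the calcium store gene Casq2 differed by -0.33 (adjusted p = 0.570), or -0.52 without wild-type replicate 3. Of 13 endothelial markers 5 were apart upward, with Cldn5 at 0.62 (adjusted p = 0.379, and 0.80 with 0.0370 without wild-type replicate 3) and Kdr at 0.43 (adjusted p = 0.391). Of 13 smooth muscle and pericyte markers 2 were apart upward, with Notch3 at 0.32 (adjusted p = 0.431). In that list 7 had a higher mean and 6 a lower one, with a median of 0.0091. Its largest difference was that of Acta2, at -1.28 with overlapping groups (adjusted p = 0.455). The part of these cells in the members' values was not tested.

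For the 3 members with the largest differences, the most alike genes were sought among 14622 probes with a 6-heart mean above the background level. Likeness was the mean over 6 hearts of the absolute gap between values centred on each gene's mean. Serpina3n was nearest to Pla2g2d, a secreted phospholipase gene, with a mean gap of 0.15, and to Myl1, with 0.16. Mybpc2 was nearest to Mmrn1, a multimerin gene, with 0.077, and to Tent5c, with 0.14. Uchl1 was nearest to the NADPH oxidase gene Nox4, with 0.16, and to the scaffold gene Iqgap2, with 0.17. Iqgap2 read 7.67, 7.67 and 7.68 in wild-type and 9.29, 8.77 and 8.59 in knockout hearts (adjusted p = 0.110), tighter in wild-type hearts than Uchl1. All 6 genes were higher without overlap, 0 passed the threshold with all hearts, and the likeness over 6 hearts is a description. Without wild-type replicate 3 the adjusted p was 0.0435 for Pla2g2d, 0.0311 for Myl1, 0.0135 for Tent5c and 0.0451 for Iqgap2. Iqgap2 also passed with a trend and robust variance model (adjusted p = 0.0372) and with array weights (adjusted p = 0.0475).

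The natriuretic peptide genes, given beside the members for scale, differed by 0.71 for Nppa (adjusted p = 0.485), 0.52 for Nppb (adjusted p = 0.589) and -0.093 for Nppc (adjusted p = 0.787). Nppa read 11.63, 11.65 and 12.47 in wild-type and 13.12, 12.17 and 12.59 in knockout hearts, again with wild-type heart 3 within the knockout range and knockout heart 1 highest. Its difference was 0.46 without knockout replicate 1. Nppb read 10.59, 10.88 and 11.66 in wild-type and 12.07, 11.18 and 11.45 in knockout hearts, with wild-type heart 3 above knockout hearts 2 and 3.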

How the data were processed

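The authors deposited log2 expression values of 6 arrays, 1 per heart; RMA and Partek 6.6 are named in the submitters' processing notes, and neither settings nor a genome build were found in them. Array medians lay between 6.92 and 6.97 over 35556 probes, so no further normalization was applied. Of these, 21789 probes had exactly 1 gene symbol in the platform annotation, 1621 several and 12146 none; 21698 of the 1-symbol probes matched a RefSeq table of GRCm38.p6 by Entrez ID, used for names. Motifs were searched in RefSeq promoter sequences of that build. The background level was the 95th percentile of the mean values of receptor probes.

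The knockout minus wild-type difference of each 1-symbol probe was fitted with limma 3.58.1 (R 4.3.3, lmFit and eBayes), two-sided, p-values were adjusted over all 21789 by Benjamini and Hochberg, and the fit was tested on simulated data. An exact permutation test of 3 against 3 hearts cannot go below 0.1 and was not used. The number of arrays limits the precision. Named were all members, their family relatives (carboxylesterases by their range), defining markers of other cell types, the natriuretic genes, the 2 largest differences above background in each list, and the 2 genes most alike in pattern to each of the 3 most different members. So were the genes apart in either direction in the list around GDF15 and the integrated stress response. The members and the lists were chosen with earlier results of these data known. Alternatives covered normalization, dim probes, tested family, probe averaging, variance model, array weights, replicate block and each heart left out. Figures were drawn with matplotlib 3.10.9.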

Additional observations from a re-analysis of the deposited data

How the results depend on the processing

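The difference of each of the 9 members kept its direction under all 16 alternatives, and 2 members, Ankrd1 and Serpina3n, passed the adjusted threshold in 1 of them, without wild-type replicate 3. The number of members called was 0 to 2 when each heart was left out in turn, and their median difference 0.36 to 0.78, the highest without wild-type replicate 3. The number of probes called, 6 with all hearts, was 1 to 293 when each heart was left out. It was 1 when probes with several or no symbols were tested too, 22 with a trend and robust variance model, 33 with array weights and 11 with the replicate number as a block. Deviations of hearts with the same number correlated at -0.11, -0.16 and -0.0031 over probes, so the numbers were not taken as pairs; the block changed no other call named here.

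Of the 74 other genes followed, relatives included, 0 passed with all hearts and 15 passed without wild-type replicate 3, 13 of them in no other alternative; Cd14 and Iqgap2 also passed with the trend and robust model and with array weights. Of the same 74, 11 changed sign in some alternative, each an uncalled difference. With array medians subtracted Ces1b was at 0.000598 and Mybph at 0.020, and Mybph was at 0.0051 with quantile and 0.0014 with cyclic loess normalization. With array weights Ces1c was at -0.015 and Serpina3a at 0.017. With each heart left out in turn the difference was -0.13 to 0.10 for Ces1b, -0.12 to 0.088 for Ces1c, -0.036 to 0.081 for Ces1g, -0.073 to 0.38 for Ces2e, -0.11 to 0.16 for Ces3a, -0.16 to 0.0050 for Ces3b, -0.064 to 0.092 for Mybph, -0.25 to 0.035 for Serpina3a, -0.17 to 0.020 for Serpina3b, -0.015 to 0.15 for Uchl5 and -0.069 to 0.19 for Xirp1. The causes were not tested.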
